A study of Homo sapiens with 24 samples.

Results

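The Hedgehog pathway genes described here are the ligands SHH and IHH, the receptor PTCH1, the signal transducer SMO, the ligand-binding antagonist HHIP and the transcription factors GLI1, GLI2 and GLI3. These 8 genes were taken by name, as 8 of the 19794 protein-coding genes whose promoters were scored. A promoter window held all bases within 5 kb of any protein-coding transcript start of the gene, and H3K27ac peaks elsewhere in the gene body were added. In each window the length covered by peaks and the strength of the best peak were read from 18 peak lists, 6 for each of 3 histone marks.

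The material was PANC-1, an established human pancreatic ductal carcinoma cell line. ChIP-seq, the sequencing of DNA precipitated with an antibody to a histone mark, was done on cells transfected with a control siRNA (siControl), on siControl cells treated with TGFβ at 10 ng/ml for 48 h (siControl+TGFβ), and on cells transfected with an siRNA against PHF13 and treated in the same way (siPHF13+TGFβ). PHF13 is a PHD-finger protein that binds H3K4me3. Each group had 2 libraries per mark, so all cells came from 1 line and all had been through siRNA transfection, and no siPHF13 cells without TGFβ were analysed here. Nothing in the labels says that the 2 libraries of a group came from separate cultures, so their spread may be technical.

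H3K4me3 marks active and poised promoters, H3K27ac marks active promoters and enhancers, and H3K27me3 is the mark of Polycomb repression. A promoter that carries H3K4me3 and H3K27me3 together is called bivalent. In Hedgehog signalling a secreted ligand binds PTCH1, which releases SMO, and SMO then turns the GLI proteins into activators of genes that include PTCH1, HHIP and GLI1 themselves. In pancreatic ductal carcinoma the tumour cells are known to make ligand that acts on the surrounding stroma, and GLI2 and GLI1 are known to be inducible by TGFβ in several cell types without SMO.

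Before the results, a conflict in the files has to be stated. The peak names inside the lists labelled siPHF13+TGFβ carry the stem NCT, and those inside the lists labelled siControl+TGFβ carry the stem 3AT, while the siControl lists carry NC. In the study's own naming, NC stands for the control siRNA and NCT for the control siRNA with TGFβ. The groups here follow the labels, and every comparison that involves either TGFβ group, siControl+TGFβ against siControl included, means what its name says only if the labels are right. For that reason the lists labelled siPHF13+TGFβ are also compared with siControl.

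The lists differed in length. H3K4me3 lists held 27869 to 39202 peaks, H3K27ac lists 6004 to 36104 and H3K27me3 lists 59573 to 165717. The library labelled siPHF13+TGFβ replicate 1 was the shortest for all 3 marks, and its H3K27ac list touched 21.2% of the coding promoters, where the longest list touched 63.4%. Read depth cannot be read from peak lists. The windows of IHH, PTCH1 and GLI1 also hold starts of noncoding transcripts, and peaks there cannot be assigned to one or the other. The H3K27ac region just upstream of GLI1 (chr12:57852394-57853489) had its central 300 bases wholly in annotated exon of another gene. That region cannot be assigned to GLI1 alone either. A promoter without a peak is one that did not pass the peak caller's threshold in that library, which is not the absence of the mark. Of 7 epithelial and ductal marker genes, 6 had H3K4me3 in 6 of 6 lists (KRT7 in 1), and 5 had H3K27ac in at least 5 lists. CDH1 had no H3K27ac in any list and H3K27me3 in 5. Of 8 matched markers of fibroblasts, blood, endothelium and acinar cells, 7 had H3K4me3 in no list and none had H3K27ac, whereas PDGFRA had H3K4me3 and H3K27me3 in 6 of 6. PECAM1 had no match among the gene symbols.

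Sequence is shown for the sites on which the acetylation results turn, read from GRCh37, the genome build of the peak lists, on the coding strand. The 3 stretches of 300 bases lie at the centres of acetylated regions in introns of GLI2, with no annotated exon or untranslated base in them. They are the region just behind the promoter, acetylated with and without TGFβ (chr2:121499077-121499376), and the pair deep in the gene that had H3K27ac peaks in both siControl+TGFβ lists and in neither siControl list (chr2:121672753-121673052 and chr2:121692353-121692652). Capitals mark a match to the AP-1 motif TGANTCA.
GLI2 promoter-proximal intron: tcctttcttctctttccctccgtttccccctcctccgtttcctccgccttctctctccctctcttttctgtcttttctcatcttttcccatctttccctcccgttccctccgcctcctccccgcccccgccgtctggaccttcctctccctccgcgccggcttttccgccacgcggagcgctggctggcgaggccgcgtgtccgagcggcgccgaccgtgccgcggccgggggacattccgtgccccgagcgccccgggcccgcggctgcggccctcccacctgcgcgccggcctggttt
GLI2 distal intron, nearer region: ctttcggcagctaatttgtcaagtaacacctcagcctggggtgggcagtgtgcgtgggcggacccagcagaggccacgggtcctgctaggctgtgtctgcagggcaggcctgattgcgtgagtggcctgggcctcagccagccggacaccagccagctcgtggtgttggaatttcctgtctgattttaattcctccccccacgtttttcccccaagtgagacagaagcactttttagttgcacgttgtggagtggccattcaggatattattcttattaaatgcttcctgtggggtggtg
GLI2 distal intron, farther region: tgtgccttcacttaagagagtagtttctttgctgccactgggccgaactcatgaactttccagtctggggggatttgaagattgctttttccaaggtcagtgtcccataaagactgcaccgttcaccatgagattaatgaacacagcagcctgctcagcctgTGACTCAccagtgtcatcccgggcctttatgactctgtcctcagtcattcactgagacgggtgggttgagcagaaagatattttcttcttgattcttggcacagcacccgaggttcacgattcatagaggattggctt

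The stretches differed in base composition. The promoter-proximal stretch was 69.7% G and C with 36 CpG dinucleotides, the nearer distal stretch 55.3% with 9, and the farther distal stretch 48.3% with 6. Over the central 300 bases of all 39923 merged H3K27ac regions the median was 51.0% with 6 CpG dinucleotides, so the distal pair lay near the middle of that range and the promoter-proximal stretch above its 75th percentile (63.0% and 19). The motif TGANTCA, which is its own reverse complement, was searched on both strands and was found in the farther distal stretch only among these 3. It occurred in 14.9% of the 39923 central stretches. Over whole regions it occurred once in both distal GLI2 regions and in 1 region each of SHH and GLI1, and in none of the other 12 acetylated regions at the Hedgehog genes. The GLI consensus TGGGTGGTC and the CAGA box AGCCAGACA, a SMAD-binding element, occurred in 0.235% and 0.476% of the 39923 central stretches. Neither occurred in any of the 16 whole acetylated regions at the Hedgehog genes. Those whole regions were 194 to 2011 bp long, and shares over whole regions genome-wide were not computed, so the counts and shares are not like for like. No motif overlapped another.

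A GLI consensus was present in 1 of the 11 RefSeq promoters (250 bases before to 50 after a start, GRCh38.p14) of the Hedgehog genes, which were SHH, IHH, SMO, HHIP, GLI2 and PTCH1. GLI1 and GLI3 had no entry. It lay in the promoter of a PTCH1 transcript, with its centre 168 bp upstream of the start, and PTCH1 is a textbook target of the GLI proteins. Of all 35116 promoters in the table, 0.236% held these letters on either strand. The site with its flanks, which the annotation places in an intron of longer PTCH1 transcripts, is shown from the coding strand at chr9:98271672-98271760 (GRCh37), with the consensus in capitals.
PTCH1 GLI site: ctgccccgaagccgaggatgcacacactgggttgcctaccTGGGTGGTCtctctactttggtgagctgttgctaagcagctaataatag

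The site itself (chr9:98271712-98271720) was overlapped by an H3K4me3 peak in siControl+TGFβ replicate 1 and by no peak in the other 17 lists.

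All 8 genes had H3K4me3 peaks in 6 of 6 lists, a state shared with 72.7% of coding promoters. They divided by the other marks. IHH, SMO, HHIP and GLI3 combined H3K4me3 and H3K27me3 in 6 of 6 lists with no H3K27ac in any, which 7.44% of all coding promoters did. GLI1 carried all 3 marks, and H3K27me3 was in 6 of 6 lists there and in 5 of 6 at PTCH1 and GLI2. SHH had H3K27me3 in 3 lists and H3K27ac in 4. The plot of covered length by library shows these values. These states hold for the lists as deposited. With a −log10 q-value of at least 3, H3K27me3 was left at 0 and 3 of the 8 genes in the siControl lists. It was left at 1 and 2 in the siControl+TGFβ lists and at 0 and 1 in the siPHF13+TGFβ lists. None of the genes then combined H3K4me3 and H3K27me3 in 6 of 6 lists. With the 50% strongest peaks of each list, H3K4me3 was left at 3 to 7 of the 8 genes. Below, values without TGFβ are those of siControl, values with TGFβ those of siControl+TGFβ, and values with siPHF13 and TGFβ those of siPHF13+TGFβ, each for replicate 1 and then replicate 2.

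**Figure D1:**
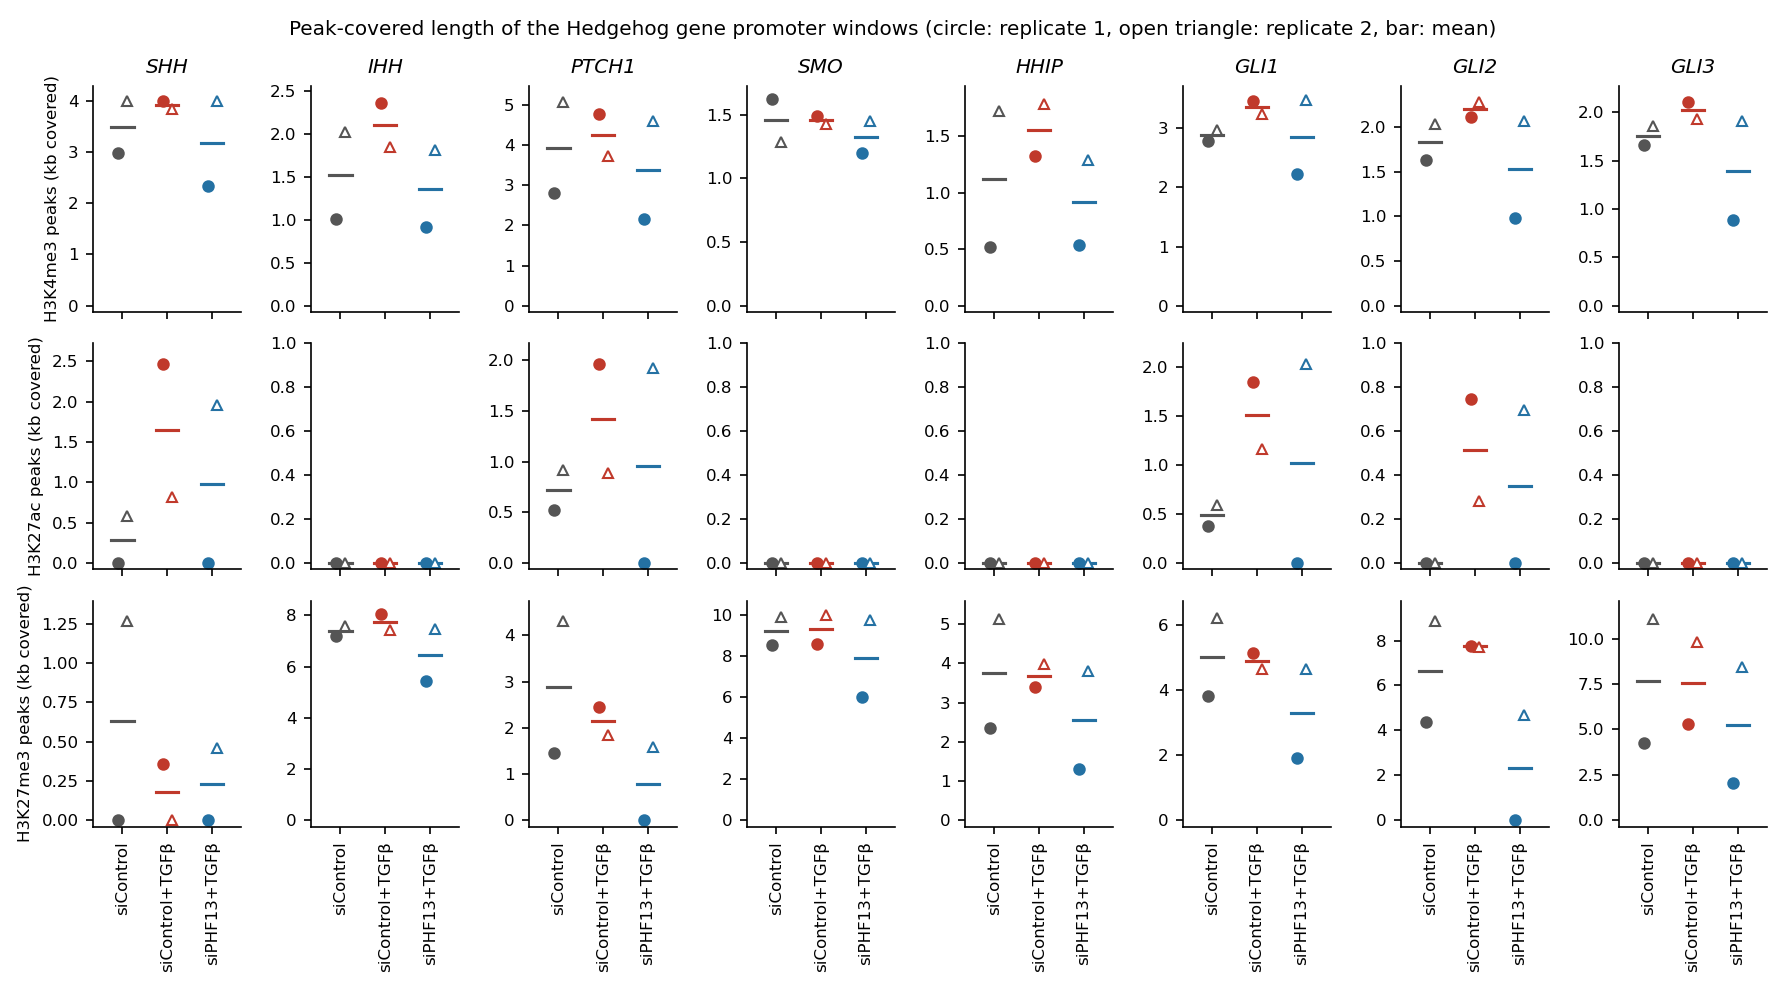
Length of each promoter window covered by peaks, in kb, for the 8 Hedgehog genes (columns) and 3 marks (rows), with each library as a point and the group mean as a bar. H3K27ac stays at 0 for IHH, SMO, HHIP and GLI3, and the filled circle of siPHF13+TGFβ, replicate 1, is at 0 for H3K27ac in all 8 genes.

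SHH, the ligand best known from pancreatic tumours, lies on chr7:155592674-155605157 (minus strand). Its H3K4me3 peaks covered 2972 and 3988 bp without TGFβ, 3998 and 3838 bp with TGFβ and 2339 and 3992 bp with siPHF13 and TGFβ. These formed 1 region of 4231 bp (chr7:155600948-155605178) that ran from the 5′ end over the start of the gene's inner transcript. H3K27ac covered 0 and 580 bp without TGFβ, 2469 and 815 bp with TGFβ and 0 and 1963 bp with siPHF13 and TGFβ, so both siControl+TGFβ libraries were above both siControl libraries.
The region over the 5′ end (chr7:155603790-155605182) had H3K27ac in 3 lists, at 1393 and 482 bp with TGFβ and 342 bp in replicate 2 of siPHF13+TGFβ. H3K27me3 covered, in the same order, 0 and 1267 bp, then 358 and 0 bp, then 0 and 461 bp, and in no group did it recur on the same bases of both libraries. SHH was thus the member with the least H3K27me3, 2.60% ± 3.69 of its window (SD over 6 lists).

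IHH, the ligand known from bone and gut, lies on chr2:219919146-219925643 (minus strand). Its H3K4me3 peaks covered 1006 and 2024 bp without TGFβ, 2360 and 1848 bp with TGFβ and 910 and 1807 bp with siPHF13 and TGFβ. H3K27me3 covered, in the same order, 7199 and 7589 bp, then 8037 and 7414 bp, then 5449 and 7450 bp. The H3K27me3 peak was among the strongest of every list, between the percentiles 92.3 and 99.0 of peaks ranked by q-value. It belonged to a merged region of 33660 bp (chr2:219895020-219928679) that continued far past the 3′ end of the gene. In each group every H3K4me3 base found in both libraries lay under H3K27me3 in both libraries. Within siPHF13+TGFβ replicate 1 alone the share was 59.2%.

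PTCH1, the receptor that holds SMO inactive, lies on chr9:98205262-98279339 (minus strand) and has several starts. H3K4me3 covered 2806 and 5066 bp without TGFβ, 4776 and 3726 bp with TGFβ and 2160 and 4603 bp with siPHF13 and TGFβ. H3K27ac covered, in the same order, 520 and 913 bp, then 1966 and 883 bp, then 0 and 1923 bp, and H3K27me3 covered, in the same order, 1445 and 4313 bp, then 2441 and 1849 bp, then 0 and 1580 bp. Acetylation and H3K27me3 lay at different starts. The acetylated region found in 5 lists (chr9:98272909-98274153) lay 1361 bp upstream of the start that has the GLI site, in an intron. All H3K27me3 regions found in more than 1 list lay around the 5′ end of the gene, the largest at chr9:98277116-98280986 in 5 lists. There an H3K4me3 region of 1441 bp (chr9:98278134-98279574) was present in 6 lists without any H3K27ac.

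SMO, the transmembrane protein that passes the signal on, lies on chr7:128828474-128853386 (plus strand) and had the most H3K27me3. It covered 8555 and 9906 bp of the 10001 bp window without TGFβ, 8608 and 10001 bp with TGFβ, and 6010 and 9765 bp with siPHF13 and TGFβ. H3K4me3 covered, in the same order, 1623 and 1289 bp, then 1487 and 1428 bp, then 1202 and 1453 bp, as 1 peak over the start in every list. All of it lay under H3K27me3 in 6 of 6 libraries. The H3K4me3 peak ranked between the percentiles 56.8 and 88.8 of its list.

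HHIP, which binds and sequesters the ligands, lies on chr4:145567308-145666423 (plus strand). H3K4me3 covered 523 and 1723 bp without TGFβ, 1327 and 1790 bp with TGFβ and 534 and 1295 bp with siPHF13 and TGFβ. H3K27me3 covered, in the same order, 2345 and 5144 bp, then 3387 and 3977 bp, then 1310 and 3808 bp. Replicate 1 of siControl and of siPHF13+TGFβ were low for both marks. In those libraries 33.1% and 0% of the H3K4me3 bases lay under H3K27me3, whereas the share was 99.9% or 100% in the other 4.

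GLI1, the effector that is itself a target of the pathway, lies on chr12:57853568-57866051 (plus strand). H3K4me3 covered 2787 and 2976 bp without TGFβ, 3462 and 3249 bp with TGFβ and 2219 and 3475 bp with siPHF13 and TGFβ. H3K27ac covered, in the same order, 377 and 597 bp, then 1855 and 1167 bp, then 0 and 2037 bp, so both siControl+TGFβ libraries exceeded both siControl libraries. H3K27me3 covered, in the same order, 3829 and 6214 bp, then 5127 and 4657 bp, then 1906 and 4660 bp.
No base of the H3K4me3 peaks in the GLI1 window lay under H3K27me3 in any of the 6 libraries. H3K4me3 and H3K27ac occupied the 5′ part (chr12:57852805-57856528 for H3K4me3), and H3K27me3 formed a region of 21160 bp that began further into the gene and ended past it (chr12:57857196-57878355), with short H3K27me3 peaks upstream of the gene in 2 lists. Past the 3′ end of the gene and outside the window, a further H3K4me3 peak lay inside the bounds of that region in 6 lists. The presence of all 3 marks in the GLI1 window therefore did not place H3K4me3 and H3K27me3 on shared bases. The map of deposited peaks shows this boundary beside PTCH1 and SMO.

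**Figure D2:**
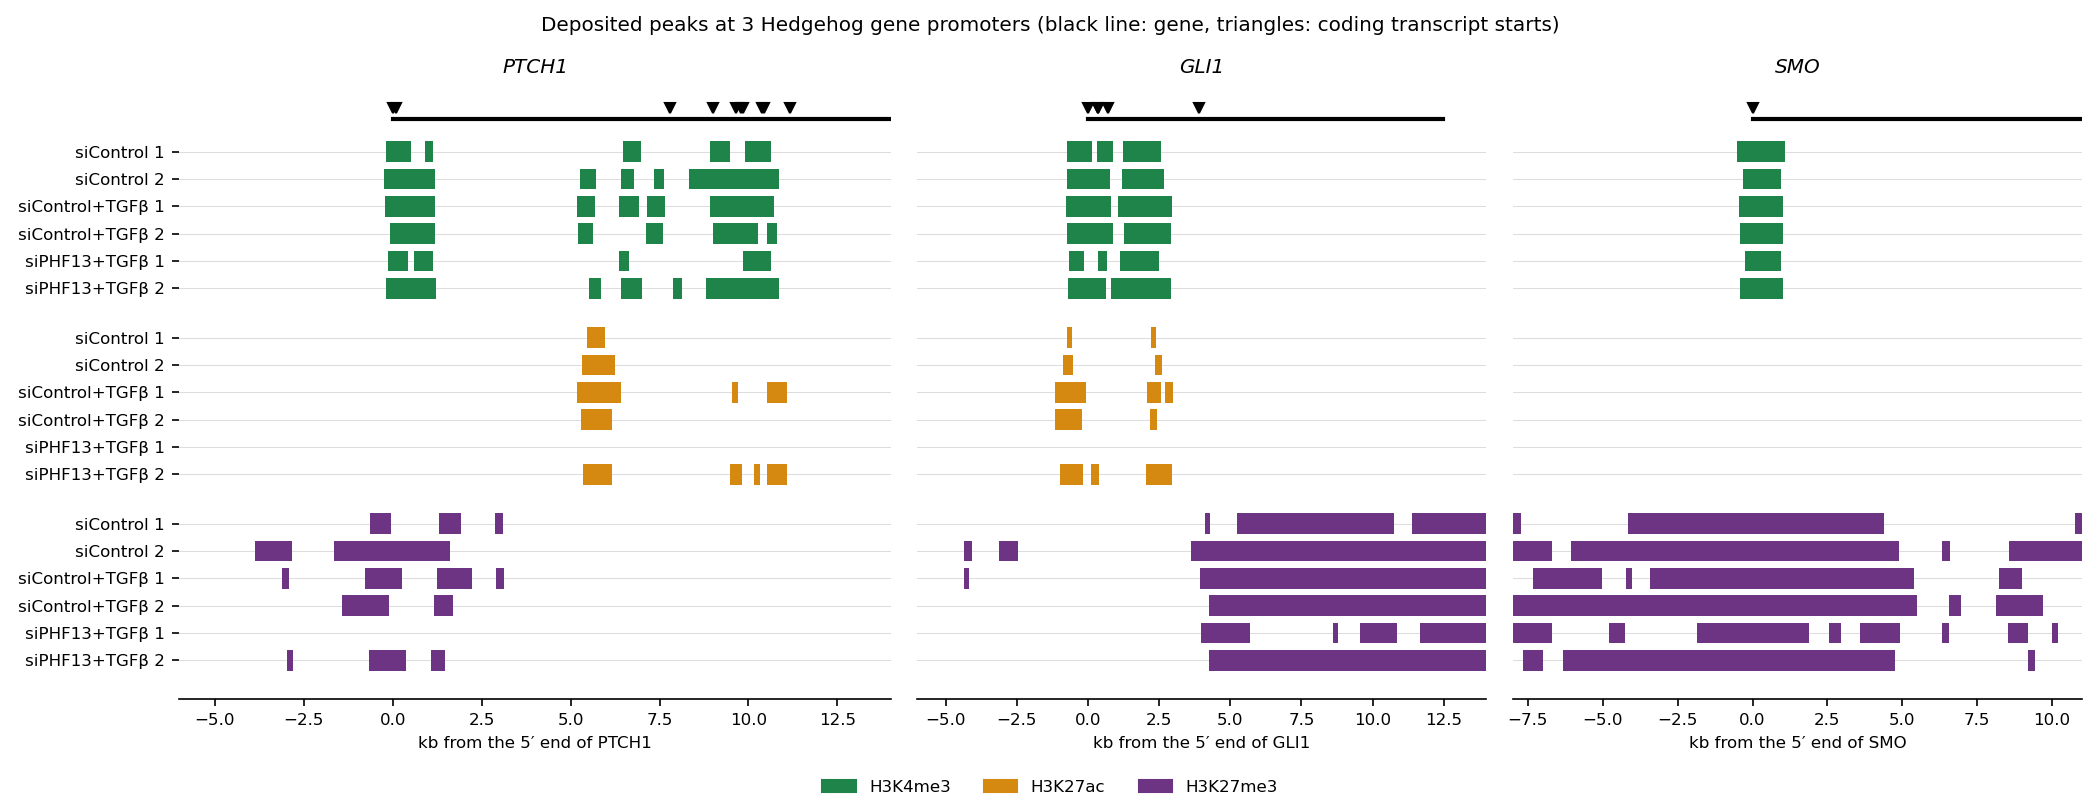
Deposited peaks by distance in kb from the 5′ end of PTCH1, GLI1 and SMO, with 1 line per library and colour for the mark. Over the span plotted, the long H3K27me3 blocks at GLI1 start downstream of the H3K4me3 blocks, with short ones upstream in 2 lists, at PTCH1 they surround the 5′ end while H3K27ac lies further in, and at SMO they span the whole H3K4me3 peak.

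GLI2, held to be the main activator of the pathway, lies on chr2:121493199-121750229 (plus strand). H3K4me3 in its promoter windows covered 1637 and 2036 bp without TGFβ, 2118 and 2279 bp with TGFβ and 985 and 2071 bp with siPHF13 and TGFβ. H3K27me3 covered, in the same order, 4396 and 8871 bp, then 7765 and 7731 bp, then 0 and 4673 bp. Within the windows H3K27ac covered 0 and 0 bp without TGFβ, 745 and 282 bp with TGFβ and 0 and 698 bp with siPHF13 and TGFβ. GLI2 was the only member with H3K27ac in both siControl+TGFβ lists and in neither siControl list, as were 339 of the 19794 coding promoters (1.71%).

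In the GLI2 gene body 3 further acetylated regions were found, and no other member had an H3K27ac region outside its windows. The promoter-proximal region (chr2:121498558-121499895), 5114 bp past the nearest start, had 157 and 748 bp without TGFβ, 1265 and 415 bp with TGFβ and 0 and 1191 bp with siPHF13 and TGFβ. The nearer distal region (chr2:121672089-121673716) had 0 and 0 bp, 1357 and 468 bp, and 0 and 1366 bp. The farther distal region (chr2:121691498-121693508) had 0 and 0 bp, 1925 and 1047 bp, and 0 and 1782 bp. The distal pair lay 117192 and 136601 bp past the nearest annotated coding start.

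H3K4me3 was present at the same places. The promoter-proximal region had it in 6 lists (586 to 1417 bp), the nearer distal region in 4 (0 and 663 bp without TGFβ, 590 and 351 bp with TGFβ, 0 and 158 bp with siPHF13 and TGFβ) and the farther distal region in 3 (0 and 401 bp, 1244 and 851 bp, 0 and 0 bp). Neither distal region was touched by H3K27me3. The acetylated part of the promoter and the promoter-proximal region, by contrast, overlapped a merged H3K27me3 region (chr2:121493811-121504776) that had peaks in 6 lists, outside the promoter windows in siPHF13+TGFβ replicate 1.

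**Figure D3:**
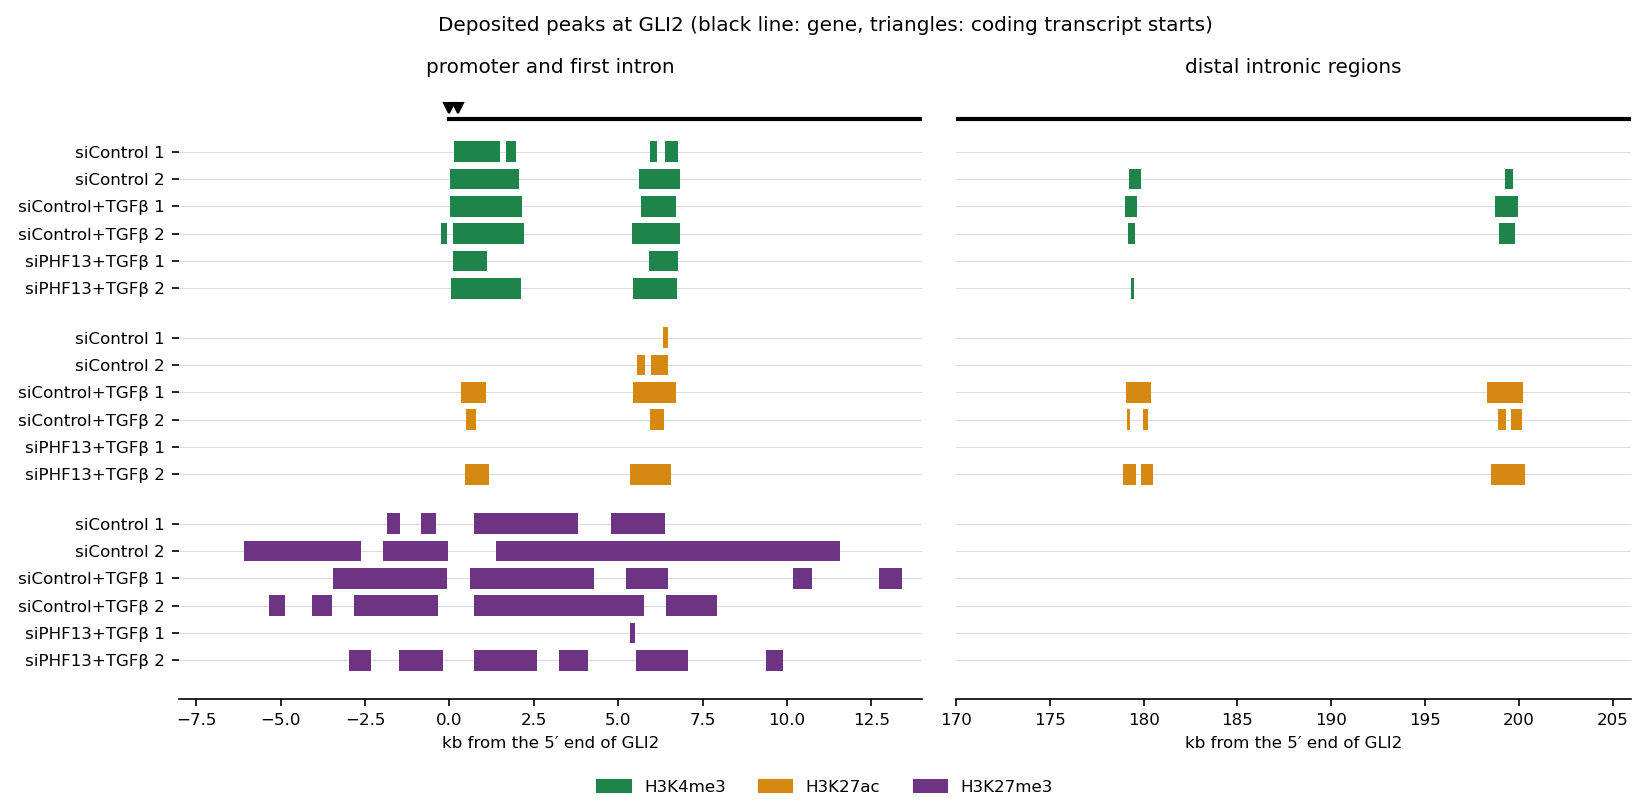
Deposited peaks by distance in kb from the 5′ end of GLI2, with the promoter and start of the gene on the left and the distal introns on the right, 1 line per library. The promoter and both distal regions show H3K27ac in both siControl+TGFβ lists and siPHF13+TGFβ replicate 2, and in neither siControl list.

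List length bears on these differences, since the siControl H3K27ac lists (19413 and 25929 peaks) were shorter than the siControl+TGFβ lists (36104 and 27110). With each of the 5 lists other than siPHF13+TGFβ replicate 1 cut to its 19413 strongest H3K27ac peaks, the farther distal region of GLI2 kept 1925 and 1047 bp with TGFβ and 1782 bp in replicate 2 of siPHF13+TGFβ, with 0 bp in both siControl lists. The nearer distal region then kept 1357 and 0 bp in siControl+TGFβ and the promoter 0 and 282 bp, so there the siControl+TGFβ libraries no longer both had a peak. At SHH a single peak of 272 bp was left, in siControl+TGFβ replicate 2. The GLI1 window kept 1096 and 1167 bp against 377 and 330 bp, and so stayed apart. Most of this lay in the upstream region that overlaps an exon of another gene, with 1096 and 926 bp against 194 and 330 bp. The best peak of the farther distal region ranked 10295 of 36104 and 9035 of 27110 in siControl+TGFβ and 12558 of 32403 in siPHF13+TGFβ replicate 2.

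GLI3, the main repressor form of the family when Hedgehog signalling is off, lies on chr7:42000547-42303699 (minus strand). H3K4me3 covered 1660 and 1855 bp without TGFβ, 2102 and 1934 bp with TGFβ and 882 and 1908 bp with siPHF13 and TGFβ. H3K27me3 covered, in the same order, 4232 and 11064 bp, then 5299 and 9826 bp, then 2044 and 8456 bp, so replicate 1 was lower than replicate 2 in each group. Both marks met at an internal start rather than at the annotated 5′ end, with an H3K4me3 region of 2236 bp (chr7:42275625-42277860) inside an H3K27me3 region of 11080 bp (chr7:42272005-42283084). The share of H3K4me3 bases under H3K27me3 ran from 0% in siPHF13+TGFβ replicate 1 to 100% in replicate 2 and was 22.3% to 56.3% in the other 4 libraries.

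The genes are ordered here by the percentage of the window that peaks covered, averaged over 6 lists, because the windows differ in length. The order depends on this choice, which places genes with long windows lower. By median covered bp of H3K27me3, GLI3 (6877.5) was above GLI2 (6202), GLI1 (4658.5) and HHIP (3597.5). By that of H3K4me3, GLI2 (2053.5) and GLI3 (1881.5) were above SMO (1440.5) and HHIP (1311). For H3K27me3 the order was SMO (88.1% ± 15.1, SD), IHH (71.9% ± 8.97), HHIP (33.2% ± 13.4), GLI1 (31.6% ± 10.4), GLI2 (22.1% ± 13.0), GLI3 (17.0% ± 8.73), PTCH1 (6.21% ± 4.54) and SHH (2.60% ± 3.69). IHH and HHIP were the only neighbours whose ranges did not overlap, and HHIP exceeded GLI1 in 3 of 6 lists. For H3K4me3 the order was SHH (26.3% ± 5.24), GLI1 (21.8% ± 3.45), IHH (16.6% ± 5.78), SMO (14.1% ± 1.49), PTCH1 (12.4% ± 3.76), HHIP (12.0% ± 5.56), GLI2 (7.37% ± 1.89) and GLI3 (4.29% ± 1.09), and all neighbouring ranges overlapped. For H3K27ac SHH (7.25% ± 7.68) and GLI1 (7.23% ± 5.92) did not differ beyond their spread, followed by PTCH1 (3.32% ± 2.50) and GLI2 (1.14% ± 1.41).

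**Figure D4:**
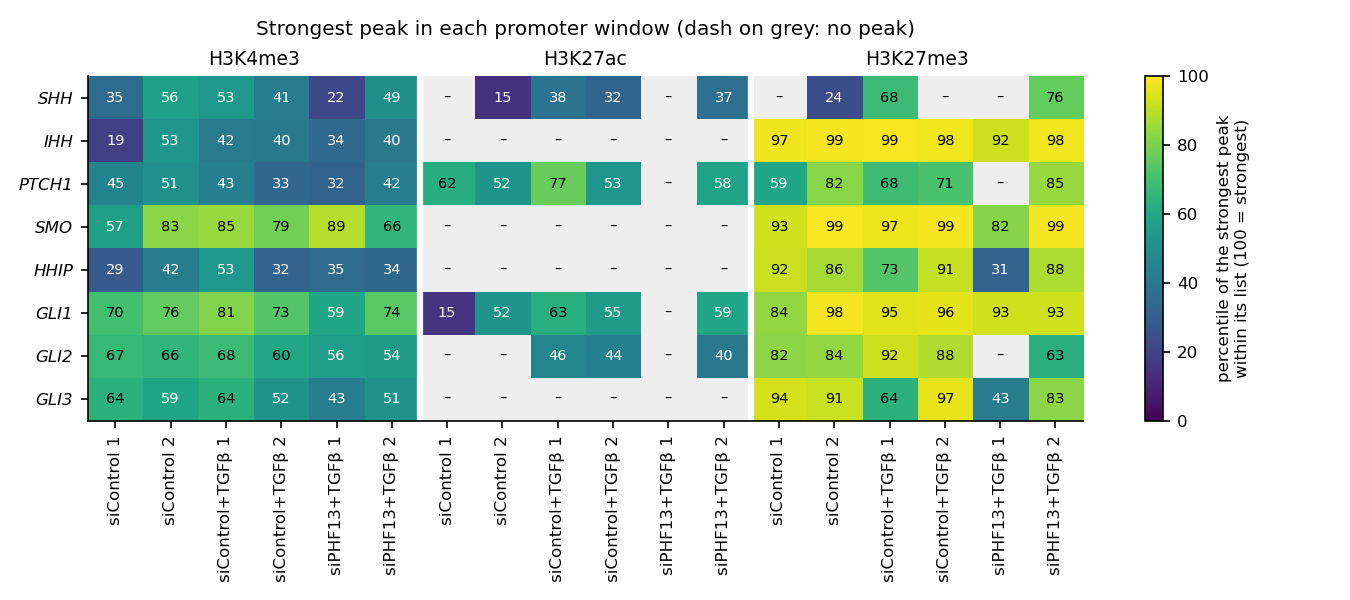
Percentile of the strongest peak in each promoter window within its own list, where 100 is the strongest peak by q-value and a dash means no peak, for 8 genes in 18 lists. IHH, SMO and GLI1 are above 80 in all 6 H3K27me3 lists, while the highest H3K27ac value is 76.7, at PTCH1.

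To compare the groups, covered length was tested over libraries, and the genes were counted whose 2 libraries in a group were both above or both below those of the other. With 2 libraries against 2 the exact two-sided permutation test cannot give a p-value under 0.333, which is what every such gene had. A fit of all coding promoters with limma called none of the 8 genes for any mark or comparison at an adjusted p under 0.05. It called 19 of 15173 promoters (0.125%) for H3K4me3 between siControl+TGFβ and siControl, 23 (0.152%) between siPHF13+TGFβ and siControl+TGFβ, and 0 (0%) in the other 7 fits, where limma gave 1 to 285 promoters at an unadjusted p under 0.05. The comparisons share their control libraries.

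The first comparison asks what TGFβ changed in siControl cells, if the labels are right. Were the labels of the TGFβ groups exchanged, its values would be those of siPHF13 cells with TGFβ against siControl. H3K27ac was longer in both siControl+TGFβ libraries than in both siControl libraries at SHH (1642 ± 1170 bp against 290 ± 410, mean ± SD, n = 2 each), GLI1 (1511 ± 486 against 487 ± 156) and GLI2 (513.5 ± 327 against 0), and was shorter at none of the 8. At PTCH1 the means were 1424 ± 766 and 716 ± 278 bp, and the libraries overlapped (883 against 913 bp). Of the 12633 coding promoters with a peak in at least 1 of these 4 lists, 54.0% were longer and 0.0554% shorter in the same sense. IHH, SMO, HHIP and GLI3 had no H3K27ac peak in these lists and could not differ, so nothing is read from the count of 3. The limma log2 differences (covered bp plus 100) were 2.56 ± 1.51 (SE) for SHH and 2.51 ± 1.51 for GLI2, each with an adjusted p of 0.987.
Summed over the 8 genes, H3K27ac covered 897 and 2090 bp without TGFβ and 7035 and 3147 bp with it, a log2 difference of 1.70 where all coding promoters together gave 0.65. Among the 16 merged H3K27ac regions at the 8 genes 12 had a peak in these 4 lists, and 4 of them had one in both siControl+TGFβ lists and neither siControl list, 3 at GLI2 and 1 at SHH. The genome-wide share of such regions was 8.38% of 36063. Regions of 1 gene are not independent of each other.

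For H3K4me3 in the same comparison, GLI1 (3355.5 ± 151 against 2881.5 ± 134 bp), GLI2 (2198.5 ± 114 against 1836.5 ± 282) and GLI3 (2018 ± 119 against 1757.5 ± 138) were longer in both siControl+TGFβ libraries. No member was shorter. These were the 3 GLI genes, but 46.6% of 15381 coding promoters were longer in the same sense and 2.07% were shorter. With 5 lists of 30770 peaks each, siPHF13+TGFβ replicate 1 left out, all 3 stayed apart, at 3462 and 3249 against 2787 and 2976 bp for GLI1, 2118 and 2097 against 1637 and 2036 bp for GLI2, and 2102 and 1934 against 1660 and 1855 bp for GLI3. The median log2 change of the 8 members was 0.20, beside 0.12 over all coding promoters. For H3K27me3 no member was longer or shorter in both libraries, where 5.67% of 9289 promoters were longer and 6.37% shorter, and the medians were 0.04 and 0.05.

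The second comparison sets siPHF13+TGFβ against siControl+TGFβ, under the caution on the labels given above. H3K4me3 was shorter in both libraries labelled siPHF13+TGFβ at IHH (1358.5 ± 634 against 2104 ± 362 bp), HHIP (914.5 ± 538 against 1558.5 ± 327), GLI2 (1528 ± 768 against 2198.5 ± 114) and GLI3 (1395 ± 725 against 2018 ± 119). It was longer at none, where 61.0% of 15353 coding promoters were shorter and 0.293% longer. The median log2 change of the members was -0.49, beside -0.22 over all coding promoters. Without siPHF13+TGFβ replicate 1, the differences were -297 bp at IHH, -263.5 bp at HHIP, -127.5 bp at GLI2 and -110 bp at GLI3. These signs could not turn, because both siPHF13+TGFβ libraries were the shorter at these genes. At the other members the differences were then 74 bp at SHH, 352 bp at PTCH1, 119.5 bp at GLI1 and -4.5 bp at SMO. The summed log2 difference over all members went from -0.45 to -0.02, so most of its size rested on that library. With all 6 lists of equal length the IHH difference turned to 79.5 bp.

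H3K27me3 was shorter in both libraries labelled siPHF13+TGFβ at PTCH1 (790 ± 1117 against 2145 ± 419 bp) and GLI2 (2336.5 ± 3304 against 7748 ± 24.0 bp). Over the 8422 coding promoters tested, 28.6% were shorter and 1.16% longer. The GLI2 difference was -5411.5 bp with both libraries and -3075 bp without siPHF13+TGFβ replicate 1, and that of PTCH1 was -1355 and -565 bp. Here too the signs could not turn, because both siPHF13+TGFβ libraries were the shorter. The summed log2 difference over all members went from -0.72 to -0.08 without that library. The limma log2 change at GLI2 was -3.51 ± 1.82 (SE), with an adjusted p of 0.828. The medians were -0.69 for the members and -0.92 for all coding promoters.

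H3K27ac separated these groups at none of the 8 genes, where 10.0% of 12771 coding promoters were shorter and 0.0157% longer. Replicate 1 had no H3K27ac peak in any of the 8 windows. PTCH1 and GLI1 had H3K27ac in the other 5 lists, and of the 9772 coding promoters with it in those 5 lists 42.5% had a peak in replicate 1. Replicate 2 was above the siControl+TGFβ mean at all 4 acetylated genes, by 321 bp at SHH, 498.5 bp at PTCH1, 526 bp at GLI1 and 184.5 bp at GLI2. The summed log2 difference was -2.55 with both libraries and 0.48 without replicate 1, so its direction rested on that library.

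The third comparison sets siPHF13+TGFβ against siControl, and was made because of the conflict in the names: were the labels exchanged, it would be the comparison of control cells with and without TGFβ. No member was longer or shorter in both libraries for any mark. The shares of coding promoters were 1.89% longer and 20.1% shorter for H3K4me3, 0.0644% and 0.225% for H3K27ac, and 0.275% and 11.4% for H3K27me3. GLI2 had 698 bp of H3K27ac in siPHF13+TGFβ replicate 2, 0 bp in replicate 1 and 0 bp in both siControl lists. The plot of changes sets the members beside all coding promoters.

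**Figure D5:**
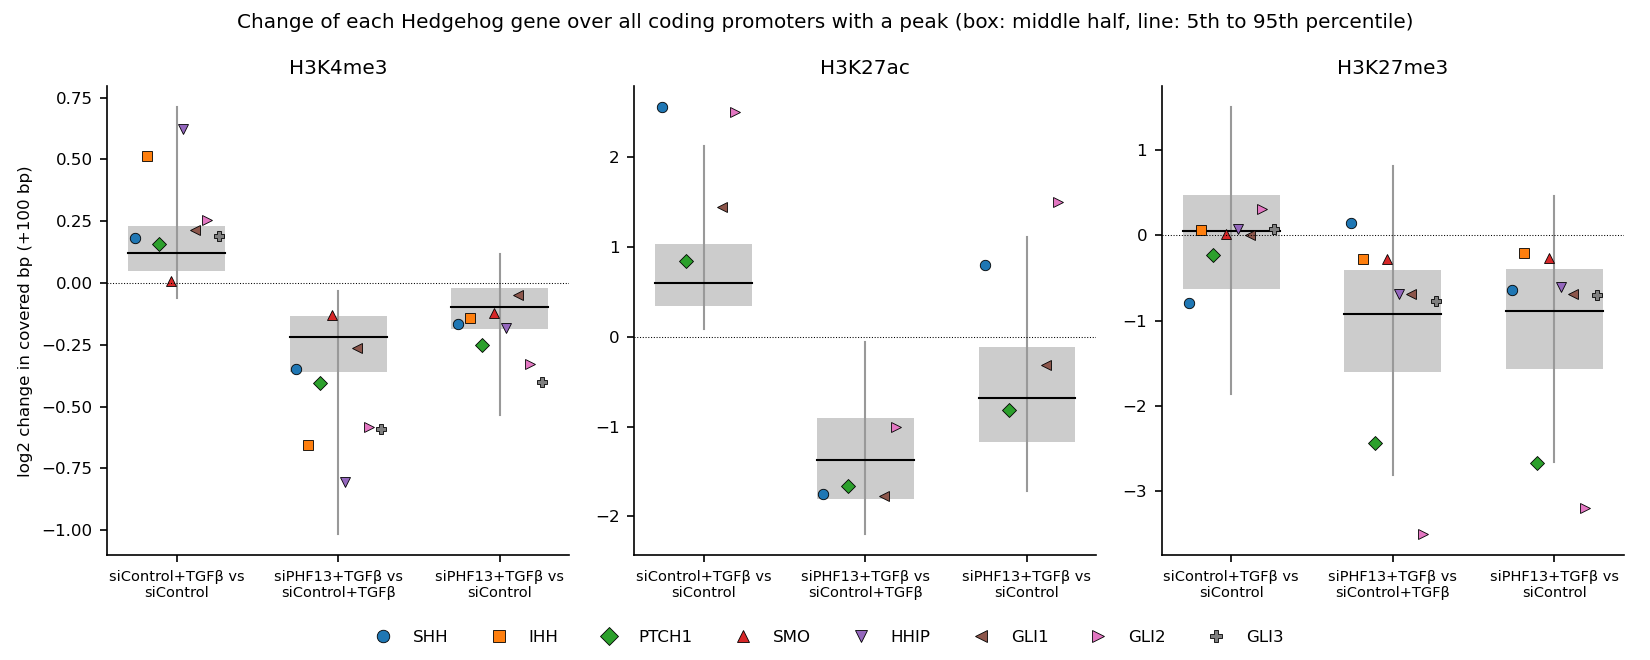
Log2 change in covered length (100 bp added) of each Hedgehog gene in 3 comparisons for each mark, over a grey box and line that give the quartiles and the outer percentiles (5 and 95) of all coding promoters with a peak. SHH and GLI2 lie above the line for H3K27ac in siControl+TGFβ against siControl, and GLI2 also does in siPHF13+TGFβ against siControl. For H3K27me3, GLI2 lies below the line in both comparisons of siPHF13+TGFβ, and PTCH1 lies just below it in siPHF13+TGFβ against siControl.

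A list of 29 other pathway genes was scored in the same way. All 29 had H3K4me3 in 6 of 6 lists, 16 had H3K27ac in at least 5 (49.6% of all coding promoters did), and 10 combined H3K4me3 and H3K27me3 in 6 of 6 with no H3K27ac, as 4 of the 8 members did. By role the latter state was found in 1 of 4 ligand and release genes (DHH), 2 of 4 receptor and co-receptor genes (BOC and GAS1), 2 of 12 transduction genes (KIF7 and GPR161) and 5 of 9 known targets (CCND2, MYCN, FOXF1, NKX2-2 and NKX6-1). The transduction genes were mostly acetylated, 10 of 12 in at least 5 lists, among them SUFU, which restrains the GLI proteins.
In siControl+TGFβ against siControl, 19 of the list had an H3K27ac peak, and 8 of these were longer and 0 shorter. Among all coding promoters with a peak 54.0% were longer, so the count is not read as a trait of the pathway. The largest differences were at SPOP (2517 against 1376.5 bp), an adaptor for GLI degradation, and at the kinases GSK3B (2158.5 against 1394), CSNK1A1 (2895 against 2157.5) and STK36 (1350 against 743.5). For H3K4me3, 13 of 29 were longer and 0 shorter, beside 46.6% longer among all coding promoters. Large differences were at HHAT, the ligand acyltransferase (2744 against 1641 bp), and the co-receptors GAS1 (2329 against 1713.5) and BOC (1815.5 against 1289). For H3K27me3, BCL2 was shorter (4398 against 7210 bp).
In siPHF13+TGFβ against siControl+TGFβ, 15 of 29 were shorter for H3K4me3, beside 61.0% of all coding promoters. HHAT (1427.5 against 2744 bp) was shorter by the most, and EVC and EVC2, which share a window, counted separately. For H3K27ac CSNK1A1 (1568 against 2895 bp) and STK36 (610 against 1350) were shorter, and for H3K27me3 FOXF1 (3500 against 6388.5). No gene of the list was longer. Against siControl, 4 of 29 were shorter for H3K4me3, beside 20.1% of all coding promoters, and none differed for the other marks. None of these differences was tested for the list as a whole, and the shares among all coding promoters are those given above.

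Likeness to other genes was measured as the Euclidean distance over the 18 within-list percentiles, with 0 for no peak. IHH was nearest to SLC24A3 (13.7), GRIN2C (14.2) and SEMA5A (14.6), and SMO to EGR4 (18.4), followed by GPC2 and MYT1 (up to 20.1). GLI3 was nearest to CYP27A1 (19.7), followed by PROSER2 and RPRML, and GLI1 to RGS19 (24.0), followed by ATF3 and EGFLAM (up to 27.7). HHIP was nearest to RASGEF1B (27.9), FLT1 (30.9) and CPE (31.0). The acetylated members apart from GLI1 had no gene as near, with TMDD1 (52.0), COL27A1 (53.3) and TRIM2 (56.1) for GLI2, TBX3 (58.6) and FRMD4A (65.2) for PTCH1, and PHLPP1 (61.5), ELOVL6 (62.0) and FAM171A1 (64.8) for SHH. Among the members, HHIP and GLI3 were nearest to each other, at 51.7, and SHH was 141.4 from PTCH1, the nearest member to it.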

How the data were processed

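Histone-mark ChIP-seq of PANC-1 cells gave 18 deposited peak lists, 1 per library, and input libraries carried no lists. According to the submitters' processing notes, Trim Galore 0.4.1, Bowtie2 2.4.1, Picard, MACS2 2.2.7.1 and deepTools 3.5.0 were used on hg19, and the authors called peaks per library against input, narrow for H3K4me3 and H3K27ac and broad for H3K27me3. The deposited columns hold a score, the fold enrichment over input as a ratio, and the −log10 p-value and −log10 q-value of each peak. The lowest deposited −log10 q-value was 1.30 in the narrow and 1.00 in the broad lists. The methods state a stricter threshold for narrow peaks than those lists hold, and the lists were used whole.

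The 8 genes and all lists of genes were chosen with earlier results of these data known. Overlapping peaks were merged within a library, and the covered bases of each promoter window (GENCODE 44 on GRCh37, all coding transcript starts ± 5 kb) were counted in Python 3.11.15 with NumPy 2.4.6. Peaks were ranked within a list by the deposited −log10 q-value. Log2 values had 100 bp added, also for sums over genes, because 1 library had a sum of 0. Limma 3.58.1 in R 4.3.3 fitted the 6 libraries of a mark together, for promoters with a peak in at least 2 lists, with Benjamini-Hochberg adjustment over all of them and no replicate block. Single genes were compared with an exact permutation test over libraries. The scripts were tested on simulated data.

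Named were all 8 genes, those of the further pathway list whose groups did not overlap and that differed most (at most 4 per mark and comparison), and for each member its 3 closest genes by percentile profile among those without a shared window. Genes counted by role in groups of 5 or fewer were named after their values were seen. Alternatives were lists of equal length, the 50% strongest peaks, a −log10 q-value of at least 3, windows of 2 kb, the gene's 5′ end only, other filters, and leaving out each library. Some genes that this rule names are not reported here.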

Additional observations from a re-analysis of the deposited data

How the results depend on the processing

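Leaving out a library aside, the summed log2 differences over the 8 genes moved by over 1 SD under 3 of 48 alternatives. That SD was pooled from the libraries of both groups and ran from 0.245 to 3.09 in log2. It was largest for the H3K27ac comparisons with siPHF13+TGFβ, where even a large shift stays within it. The count of 3 therefore says little about stability there. For H3K27ac, siControl+TGFβ against siControl became 0 with all lists cut to the shortest list, which leaves no peak at any member. With a −log10 q-value of at least 3 the H3K27me3 values became 2.98 for siControl+TGFβ against siControl and -3.59 for siPHF13+TGFβ against siControl+TGFβ. With the 5 lists other than siPHF13+TGFβ replicate 1 cut to 1 length, an alternative chosen after seeing the data, siControl+TGFβ against siControl was 1.15 for H3K27ac. Leaving out 1 library at a time gave, for siControl+TGFβ against siControl, -0.01 to 0.47 (H3K4me3), 1.14 to 2.27 (H3K27ac) and -0.33 to 0.43 (H3K27me3). It gave -0.89 to -0.02, -5.59 to 0.48 and -1.36 to -0.08 for siPHF13+TGFβ against siControl+TGFβ, and -0.65 to 0.21, -3.89 to 2.19 and -1.31 to -0.03 for siPHF13+TGFβ against siControl. For single members whose groups did not overlap, the difference in covered length turned its sign under 1 of 60 such alternatives (IHH, H3K4me3, 79.5 bp with lists of equal length) and became 0 under 10. For those whose groups overlapped it turned under 17 of 240 and became 0 under 38, and leaving out 1 library turned it in 55 of 192.

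The limma counts were small and unstable. For H3K4me3 they were 19 and 23 promoters (siControl+TGFβ against siControl, siPHF13+TGFβ against siControl+TGFβ), 41 and 49 with 10 bp added in place of 100, 7 and 12 without a filter, 0 and 0 for promoters with a peak in all 6 lists, 4 and 4 with lists of equal length, and 3 for the former with only its 4 libraries. Leaving out 1 library gave 0 to 3 and 0 to 22. For siPHF13+TGFβ against siControl they were 0, 3 with 10 bp added and 1 without a filter. For H3K27ac, no filter gave 2 and 2 in the first pair of comparisons, and leaving out siPHF13+TGFβ replicate 2, so that replicate 1 stood alone and was taken to vary like the other groups, gave 9458 against siControl+TGFβ and 7237 against siControl, where leaving out any other library gave 0. For H3K27me3, no filter gave 19, 3 and 13.

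The replicate numbers were not stated to pair the libraries. With the number as a replicate block the H3K4me3 counts were 0 and 0, and the other 7 stayed at 0. Same-numbered libraries of siControl and siControl+TGFβ deviated in opposite ways for H3K4me3 (r = -0.42 across promoters), while those of siControl and siPHF13+TGFβ deviated together (0.51, and 0.25 and 0.16 for H3K27ac and H3K27me3). A block with the siControl+TGFβ numbers exchanged, added after seeing the data, gave 8 and 8. The cause of these changes was not tested. Depth could not be read from the lists, so weak peaks missing from the short lists cannot be told apart from lost marks.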
